A study of Mus musculus with 24 samples.

Results

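The p27K gate, which sorts quiescent from dividing tumour cells, was compared between 2 mouse mammary tumour lines, D2A1 and EMT6. The quantity examined was the gate change of D2A1 minus the gate change of EMT6, for each gene. A gate change is the log2 level in the p27K high cells minus that in the p27K negative cells of the same tumour. A positive difference therefore means that the gene stood relatively higher in the p27K high cells of D2A1 than in those of EMT6. All 16 libraries of these 2 lines were used, of 24 in the whole series: 4 D2A1 tumours and 4 EMT6 tumours, with the 2 gates of each tumour in libraries of their own. Every tumour was grown in a female Balb/cJ mouse for 14 days after 250000 cells carrying mCherry and the mVenus-p27K reporter were placed in the mammary fat pad. No animal received a further treatment according to the labels. The reporter is a fusion of the fluorescent protein mVenus to p27K, and all groups carry it. Each line was sequenced in a run of its own. The level of a gene in D2A1 and in EMT6 therefore carries both the line and the run, which cannot be told apart, whereas the gate change is taken inside 1 tumour and 1 run. The 4 EMT6 tumours are called 0, 1, 2 and 4 here, as in the deposited count table, and the D2A1 tumours 1 to 4. Whether each line was a single clone is not given in the sources used here.

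Quiescence is a reversible exit from the cell cycle. The CDK inhibitor p27, encoded by Cdkn1b, accumulates in such cells, and p27K is a mutant form of it that cannot block its CDK targets, so that a fluorescent fusion reports quiescence without causing it. Quiescent tumour cells lower the machinery of replication and mitosis. What else they do varies with their origin and surroundings, and may include hypoxia responses, matrix production and inflammatory signalling. A test of the difference between lines asks for each gene whether the gate change was larger, smaller or opposite in the other line.

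The libraries held between 1335433 and 20174767 counts. In D2A1, tumours 1, 2 and 3 had shallow p27K negative libraries of 1335433, 2110563 and 1802042 counts, while tumour 4 had one of 15641189. The D2A1 p27K high libraries held 6727594 to 20174767 counts, and the EMT6 libraries 13769682 to 20142013. Genes with few counts in D2A1 therefore have little precision, and levels are given as CPM (counts scaled to the size of the library, corrected by TMM), with the counts themselves where these are small. The RNA is from sorted bulk cells, so fewer cells of a type and less RNA per cell cannot be told apart. The summed levels of host cell markers differed between the lists. Neutrophil markers summed to 131 to 203 CPM in D2A1 and to at most 5.10 CPM in EMT6, macrophage markers to 60.3 to 196 CPM and dendritic cell markers to 112 to 465 CPM over both lines. Yet the neutrophil genes Ly6g, Mmp8 and Ngp had 0 counts in all 8 D2A1 libraries, and only 4 of the 16 neutrophil markers could be tested. The dendritic cell gene Cd209a had 0 counts in all libraries, and Clec9a and Siglech had 0 in those of D2A1. Which cells held the other markers was not tested. In EMT6 the pericyte and smooth muscle markers summed to 336 to 677 CPM and the pan-leukocyte markers to 45.9 to 175 CPM, and fibroblast markers, many of which mesenchymal tumour cells also express, summed to at least 1033 CPM in all libraries. Ptprc (CD45) was at most 2.58 CPM in any D2A1 library and at most 0.312 CPM in any EMT6 library. Cd3e, which defines T cells, had 0 counts in all 8 D2A1 libraries and was at most 0.543 CPM in EMT6. The 17 endothelial markers summed to 13.7 to 26.0 CPM in D2A1 p27K high libraries and 26.3 to 51.9 CPM in D2A1 p27K negative libraries, ranges that do not overlap. In EMT6 the same markers summed to 10.9 to 21.4 CPM in p27K high and 11.4 to 24.7 CPM in p27K negative libraries. The epithelial genes Cdh1 and Krt5 were too low to be tested in these mammary lines, while the mesenchymal gene Vim had means of 5494 and 4604 CPM in D2A1 (p27K high, negative) and 6068 and 5138 CPM in EMT6.

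The genes that check the gate moved in the same direction in both lines. Cdkn1b, the gene of p27, was at 408, 426, 463 and 437 CPM in the p27K high cells of D2A1 tumours 1 to 4, and at 291, 309, 331 and 269 CPM in their p27K negative cells. In EMT6 tumours 0, 1, 2 and 4 it was at 361, 319, 311 and 370 CPM in p27K high and 248, 228, 215 and 241 CPM in p27K negative cells. Every p27K high library exceeded every p27K negative library of its line, the change was 0.54 in D2A1 and 0.54 in EMT6, and the difference was -0.01 ± 0.11 (log2, SE; adjusted p = 0.993, edgeR). Mki67, a marker of cycling cells, was at 17.1, 22, 20.7 and 7.89 CPM in D2A1 p27K high cells and 912, 834, 1049 and 892 CPM in D2A1 p27K negative cells. The EMT6 tumours had it at 15.3, 11.2, 13.3 and 14.1 CPM in p27K high and 508, 581, 481 and 569 CPM in p27K negative cells. The gates were thus far apart for Mki67 in all 8 tumours, with changes of -5.84 and -5.31 and a difference of -0.53 ± 0.26 that did not pass the threshold (adjusted p = 0.284).

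Of 14830 genes tested, 664 (4.48%) had a gate change that differed between the lines at an adjusted p under 0.05, by edgeR's quasi-likelihood test with Benjamini-Hochberg adjustment over all genes. D2A1 stood above EMT6 for 421 genes (2.84%) and below it for 243 (1.64%). The gate change itself passed the test much more often: 3099 genes (20.9%) rose and 2204 (14.9%) fell in D2A1, and 2285 (15.4%) rose and 2424 (16.3%) fell in EMT6. Of 3097 genes that passed in both lines, 3013 moved in the same direction. Among the 664, 294 changed in D2A1 alone, 93 in EMT6 alone, 145 in both lines but more in D2A1, 51 in both but more in EMT6, and 81 (0.546% of genes tested) changed in opposite directions, which are called reversed here. A gene that passed in 1 line alone is counted here only because the difference between lines passed its own test. Of the reversed genes, 27 (0.182%) rose in D2A1 and fell in EMT6, and 54 (0.364%) fell in D2A1 and rose in EMT6. A 2-fold or larger difference was found for 252 genes (1.7%), of which 84 (0.566%) were above and 168 (1.13%) below.

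**Figure D1:**
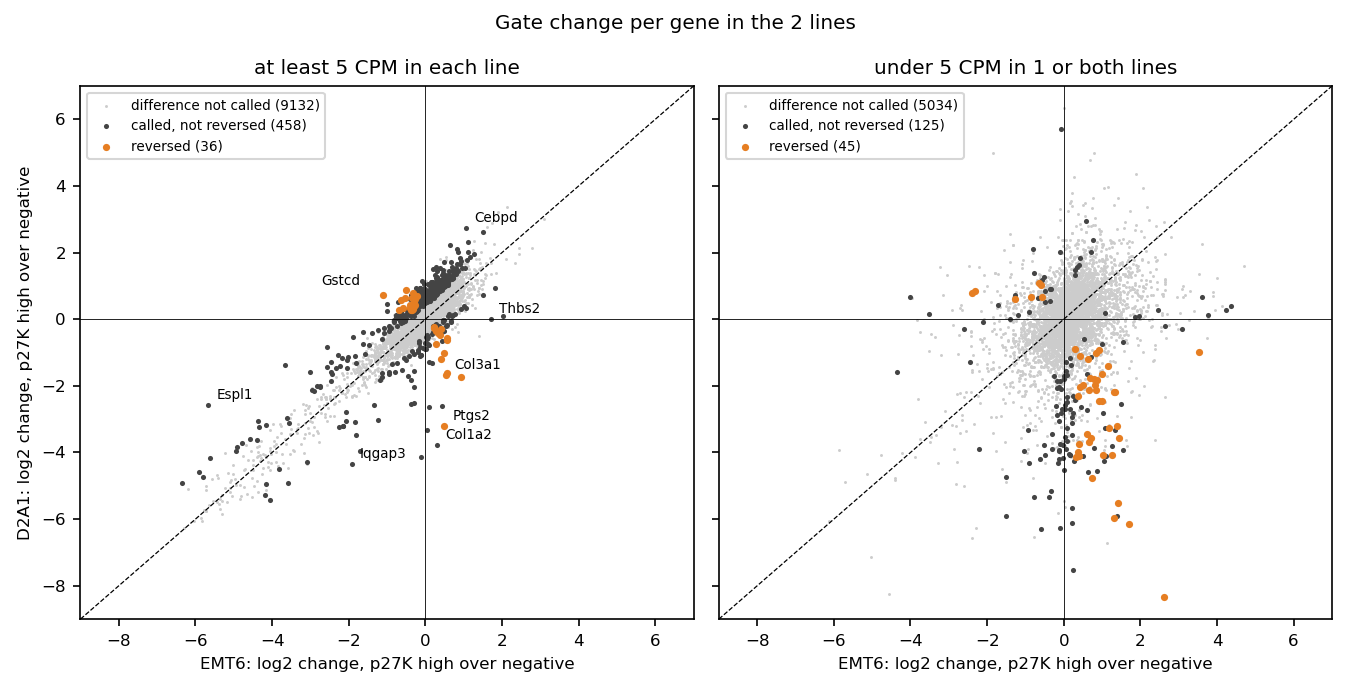
Gate change (log2, p27K high minus negative) of each gene in EMT6 on the x axis and in D2A1 on the y axis, in separate panels for genes with a mean of at least 5 CPM in each line and for the others. Grey points are genes whose difference was not called, and coloured points those called, with the 36 reversed genes of the first panel and the 45 of the second in their own colour in the quadrants where the lines move apart.

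Across the 14830 genes the changes of the 2 lines had a Pearson r of 0.597 and a Spearman rho of 0.580, given as a description since genes are not independent replicates and share libraries. The agreement depended on the level of the gene. The 9626 genes with a mean of at least 5 CPM in each line had r = 0.907 and rho = 0.787, and of them 494 (5.13%) had a called difference, 383 above (3.98%) and 111 below (1.15%). Of the 628 genes that reached 5 CPM in EMT6 only, 77 (12.3%) were called, 73 of them below and 28 reversed (4.46%), all 28 lower in the p27K high cells of D2A1. Of the 698 genes that reached 5 CPM in D2A1 only, 43 (6.16%) were called, 30 above and 13 below, with 10 reversed. Of the 3878 genes under 5 CPM in each line, 50 (1.29%) were called, 4 above and 46 below. Called genes of at least 5 CPM in D2A1 were thus mostly above and the others mostly below, at either level in EMT6. In D2A1 the p27K negative libraries of 3 tumours are shallow, while tumour 4 has deep libraries of both gates. The part of depth in this direction was not tested. With D2A1 tumour 4 alone against the EMT6 tumours, an alternative added after seeing the data, 474 genes were called and 97 reversed, of which 235 and 38 were shared with the calls from all tumours. In that fit D2A1 has no spread of its own: its 1 tumour is assumed to vary like the EMT6 tumours, so these calls are no test of D2A1, and only fitted values from it are given for genes and lists.

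The number of calls depended on single tumours and on the scaling. Without D2A1 tumour 1 or 2, 318 or 319 genes were called, without tumour 3, 1139, and without tumour 4, 731. Without EMT6 tumour 1, 2 or 4, 275, 267 or 373 genes were called, and without tumour 0, 649. Without the tumour as a block, 177 were called, of which 22 reversed. The share of called genes above EMT6 was 63.4% with TMM scaling, 42.9% with total counts, 42.5% with median-of-ratios scaling and 43.8% with DESeq2. These scalings moved the median difference over all genes, which was 0.08, by -0.08, -0.09 and -0.09. With TMM scaling kept, the share above was 38.5% with the stricter filter, 27.8% in thinned libraries, and 50.5%, 50.9% and 48.5% without EMT6 tumours 1, 2 and 4. A preponderance of genes above EMT6 was therefore not kept across settings.

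Of the reversed genes, 36 had a mean of at least 5 CPM in each line, which the rest did not. The mean is over both gates, so a gene can reach it through the gate where it is high. Igfbp7, Mir17hg and Ptgs2 were under 5 CPM in every D2A1 p27K high library, and Ptgs2 and Ctgf had few counts in single D2A1 libraries. Of the 36 genes 35, all but the predicted gene Gm7993, are described next, chosen after their values were seen. They make up 0.374% of the 9626 genes at that level, and in D2A1 20 of the 36 rose and 16 fell. For 34 of the 35 the 4 within-tumour ratios of D2A1 did not overlap with the 4 of EMT6, the exception being Ctgf. The 35 were picked by changes fitted to these same tumours, so this separation was largely set by the choice and adds no support. Over all genes 2177 (14.7%) had ratios that did not overlap, 1583 (10.7%) above and 594 (4.01%) below.

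Gstcd, which encodes a protein with a glutathione S-transferase C-terminal domain, had the smallest adjusted p of the genes that rose in D2A1 and fell in EMT6. It lies on the minus strand of chromosome 3 (chr3:132981752-133092033, GRCm38, GENCODE annotation). Its level was 307, 295, 294 and 300 CPM in the p27K high cells of D2A1 and 179, 173, 178 and 191 CPM in their p27K negative cells. The level in EMT6 was 38.2, 34.6, 34.8 and 36.4 CPM in p27K high and 78.8, 70.9, 77.4 and 80.9 CPM in p27K negative cells. All 4 D2A1 tumours had more Gstcd RNA in the p27K high gate and all 4 EMT6 tumours less, with no overlap of the gates in either line. The change was 0.73 ± 0.07 in D2A1 and -1.10 ± 0.07 in EMT6, a difference of 1.83 ± 0.11 (adjusted p = 5.26e-07). The neighbour Ints12, a subunit of the Integrator complex, is transcribed the other way and its gene overlaps Gstcd by 194 bases at their starts. Ints12 did not share the pattern: its change was 0.12 in D2A1 and -0.11 in EMT6, with a difference of 0.23 ± 0.13 (adjusted p = 0.350). Whether the counting used strand is not given in the sources used here, so reads from the shared bases could count to either gene. RefSeq gives 2 promoter windows for Gstcd, each from 250 bases before to 50 after an annotated start. The window printed here was chosen because it overlaps that of Ints12. It is chr3:133091776-133092075 on the minus strand, from RefSeq on GRCm38.p6, with the 129 bases it has in common with the Ints12 window in capitals.
Gstcd: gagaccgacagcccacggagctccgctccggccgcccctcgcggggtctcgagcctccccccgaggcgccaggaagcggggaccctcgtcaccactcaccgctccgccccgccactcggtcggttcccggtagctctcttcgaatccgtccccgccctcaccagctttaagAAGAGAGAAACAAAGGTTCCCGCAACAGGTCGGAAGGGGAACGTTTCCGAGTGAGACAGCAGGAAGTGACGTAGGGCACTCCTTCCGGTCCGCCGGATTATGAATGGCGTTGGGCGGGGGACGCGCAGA

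Genes of core transcription and metabolism were among those that rose in D2A1 and fell in EMT6. Taf12, a subunit of the general transcription factor TFIID (chr4:132274375-132295766, plus strand), was at 693, 671, 1031 and 720 CPM in D2A1 p27K high cells and 369, 434, 406 and 457 CPM in p27K negative cells. In EMT6 Taf12 was at 21.9, 22.9, 20.8 and 18.5 CPM in p27K high and 35.6, 24.9, 30.2 and 29.7 CPM in p27K negative cells. The gates did not overlap in either line, and the level in D2A1 was far above that in EMT6, which line and run share. The changes of 0.88 and -0.52 differed by 1.39 ± 0.18 (adjusted p = 0.000535). Sms, spermine synthase (chrX:157443855-157492287, minus strand), was at 301, 262, 289 and 264 CPM in D2A1 p27K high and 146, 172, 160 and 169 CPM in p27K negative cells. In EMT6 Sms was at 105, 105, 126 and 106 CPM in p27K high and 154, 121, 151 and 125 CPM in p27K negative cells. The D2A1 gates were well apart, while in EMT6 the highest p27K high library, tumour 2, lay above the lowest p27K negative ones. The changes were 0.78 and -0.31, a difference of 1.09 ± 0.13 (adjusted p = 0.000359).

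Cs encodes citrate synthase, the entry enzyme of the citric acid cycle. It was at 698, 638, 694 and 684 CPM in D2A1 p27K high and 402, 429, 441 and 494 CPM in p27K negative cells. In EMT6 Cs was at 255, 261, 265 and 283 CPM in p27K high and 362, 283, 324 and 315 CPM in p27K negative cells. All 4 EMT6 tumours were lower in the p27K high gate, and the changes of 0.62 and -0.27 differed by 0.89 ± 0.13 (adjusted p = 0.00109). Ide, the insulin-degrading enzyme, was at 406, 422, 338 and 425 CPM in D2A1 p27K high and 304, 299, 296 and 281 CPM in p27K negative cells. In EMT6 Ide was at 127, 125, 122 and 118 CPM in p27K high and 180, 162, 161 and 154 CPM in p27K negative cells. The gates did not overlap in either line, and the difference was 0.84 ± 0.12 (adjusted p = 0.000998), from 0.43 in D2A1 and -0.41 in EMT6.

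Cdkn1a, the p53 target that encodes the CDK inhibitor p21 (chr17:29090976-29100727, plus strand), was also reversed. It was at 87.0, 98.7, 95.4 and 69.7 CPM in D2A1 p27K high and 60.3, 62.7, 50.5 and 43.1 CPM in p27K negative cells. In EMT6 Cdkn1a was at 76.2, 123, 106 and 107 CPM in p27K high and 94.4, 147, 123 and 115 CPM in p27K negative cells. The 2 gates of D2A1 did not overlap, those of EMT6 did, yet each EMT6 tumour was lower in its p27K high gate. The change was 0.70 in D2A1 and -0.22 in EMT6 (adjusted p = 0.0428), and the difference was 0.92 ± 0.12 (adjusted p = 0.000611). The fall in EMT6 was no longer called with median-of-ratios scaling, where it was -0.17 (adjusted p = 0.119), with DESeq2 (adjusted p = 0.0732), without the filter on low counts (0.123), with the stricter filter (0.104), in thinned libraries (0.292), with a floor of 5 CPM in each line (0.0509) or without the block (0.360), nor when D2A1 tumour 2 or any EMT6 tumour was left out. The difference was kept in each of these but the fit without the block, where its adjusted p was 0.0588.

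Vcam1, a cell adhesion molecule for leukocytes and an NF-kB target, was at 383, 368, 290 and 484 CPM in D2A1 p27K high and 241, 267, 220 and 313 CPM in p27K negative cells. In EMT6 Vcam1 was at 135, 154, 170 and 162 CPM in p27K high and 149, 204, 209 and 211 CPM in p27K negative cells. Each D2A1 tumour was higher and each EMT6 tumour lower in the p27K high gate, with changes of 0.54 and -0.31 and a difference of 0.85 ± 0.12 (adjusted p = 0.000824). Coro1c, an actin-binding coronin, was at 238, 238, 241 and 256 CPM in D2A1 p27K high and 162, 218, 221 and 211 CPM in p27K negative cells. In EMT6 Coro1c was at 67.8, 50.6, 49.8 and 52.3 CPM in p27K high and 111, 74.3, 84.8 and 85.8 CPM in p27K negative cells. Its fall in EMT6 was the larger part, with changes of 0.27 and -0.69 and a difference of 0.95 ± 0.12 (adjusted p = 0.000594). Thbs3, a thrombospondin of the matrix, was at 140, 104, 138 and 109 CPM in D2A1 p27K high and 81.1, 74.6, 77.9 and 75.4 CPM in p27K negative cells. In EMT6 Thbs3 was at 46.3, 23.8, 22.1 and 39.9 CPM in p27K high and 45.3, 44.1, 42.1 and 51.3 CPM in p27K negative cells. EMT6 tumour 0 did not share the fall, with a ratio of 0.03, and the difference was 1.17 ± 0.19 (adjusted p = 0.00379).

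The other genes that rose in D2A1 and fell in EMT6 had differences of 0.62 to 0.99. The ephrin ligand Efnb1 changed by 0.64 and -0.35 in the 2 lines, and the surface glycoprotein gene Mpzl1 by 0.64 and -0.29. Galnt7, an enzyme of O-linked glycosylation, changed by 0.52 and -0.28, and Elovl5, an elongase of polyunsaturated fatty acids, by 0.44 and -0.28. The set also held the telomere-binding gene Pot1a, the Polycomb gene Cbx6, the acetyltransferase subunit gene Meaf6, the adenylyl cyclase gene Adcy7, the mitochondrial J protein gene Dnajc11 and Ttc7. With median-of-ratios scaling the fall in EMT6 was not called for Cs, Galnt7, Elovl5, Dnajc11 and Mpzl1, and the rise in D2A1 was not called for Coro1c, Adcy7 and Meaf6.

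The genes that fell in D2A1 and rose in EMT6 included a kinase, secreted regulators, a nuclear receptor and a fibrillar collagen. Nuak1, an AMPK-related kinase (chr10:84370905-84440597, minus strand), was at 75.2, 59.0, 71.7 and 51.1 CPM in D2A1 p27K high and 105, 77.3, 125 and 78.6 CPM in p27K negative cells. In EMT6 Nuak1 was at 175, 167, 158 and 206 CPM in p27K high and 117, 114, 101 and 142 CPM in p27K negative cells. The gates did not overlap in either line and moved apart by the same amount in opposite directions, -0.58 and 0.58, a difference of -1.15 ± 0.12 (adjusted p = 0.000111). Igfbp7, a secreted protein that binds insulin-like growth factors (chr5:77349240-77408041, minus strand), was at 4.50, 4.87, 4.98 and 4.51 CPM in D2A1 p27K high and 24.2, 20.3, 10.8 and 8.86 CPM in p27K negative cells. In EMT6 Igfbp7 was at 158, 208, 213 and 229 CPM in p27K high and 116, 157, 130 and 145 CPM in p27K negative cells. The D2A1 p27K high cells held the lowest level of all 4 groups, and the difference was -2.16 ± 0.25 (adjusted p = 0.000269), from -1.60 and 0.56.

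Nr2f2 encodes the orphan nuclear receptor COUP-TFII (chr7:70351944-70366735, minus strand). It was at 68.1, 72.3, 62.2 and 68.9 CPM in D2A1 p27K high and 83.1, 90.1, 91.3 and 89.5 CPM in p27K negative cells. In EMT6 Nr2f2 was at 207, 229, 217 and 240 CPM in p27K high and 171, 192, 162 and 192 CPM in p27K negative cells. The shifts were small but did not overlap between gates in either line, with changes of -0.38 and 0.32 and a difference of -0.70 ± 0.11 (adjusted p = 0.00296). Arhgef28, an exchange factor for the GTPase RhoA, was at 14.4, 16.8, 13.7 and 11.1 CPM in D2A1 p27K high and 27, 23.4, 19.1 and 17.0 CPM in p27K negative cells. In EMT6 Arhgef28 was at 66.3, 58.9, 50.7 and 58.2 CPM in p27K high and 45.8, 42.4, 31.0 and 39.6 CPM in p27K negative cells. It moved by -0.62 and 0.57, a difference of -1.18 ± 0.14 (adjusted p = 0.000437). Mir17hg, the host transcript of the miR-17-92 cluster, was at 4.35, 4.38, 3.47 and 4.35 CPM in D2A1 p27K high and 10.4, 13.2, 9.28 and 7.77 CPM in p27K negative cells. In EMT6 Mir17hg was at 17.5, 29.1, 25.9 and 23.1 CPM in p27K high and 15.5, 20.0, 18.3 and 17.3 CPM in p27K negative cells. Its change was -1.19 in D2A1 and 0.41 in EMT6, a difference of -1.60 ± 0.21 (adjusted p = 0.000673), and it concerns the host transcript, since the mature miRNAs were not measured.

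Amotl2 and Ctgf are targets of the YAP and TAZ coactivators, and Amotl2 also binds YAP. Amotl2 was at 105, 92.9, 74.6 and 90.4 CPM in D2A1 p27K high and 123, 113, 121 and 125 CPM in p27K negative cells. In EMT6 Amotl2 was at 212, 238, 251 and 246 CPM in p27K high and 169, 197, 185 and 205 CPM in p27K negative cells. No gates overlapped, and the changes of -0.42 and 0.33 differed by -0.75 ± 0.12 (adjusted p = 0.00370). Ctgf, a secreted matricellular protein, had 69, 49, 20 and 14 counts in the p27K high and 46, 2, 7 and 43 in the p27K negative libraries of D2A1, against 289, 575, 438 and 713 CPM in p27K high and 176, 270, 208 and 393 CPM in p27K negative cells of EMT6. Its within-tumour ratios were 0.71, 1.09, 1.07 and 0.86 in EMT6 but -3.04, 1.33, -0.22 and -1.30 in D2A1, where tumour 2 went the other way. The difference for Ctgf was -2.67 ± 0.51 (adjusted p = 0.00921), and its ratios overlapped between the lines.

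Ptgs2, which encodes the prostaglandin-making enzyme COX-2 (chr1:150100031-150108227, plus strand), had the lowest difference of the 35 genes. It had 90, 75, 1 and 3 counts in the D2A1 p27K high and 81, 71, 3 and 19 in the D2A1 p27K negative libraries, or 4.50, 4.57, 0.151 and 0.163 CPM against 56.1, 31.3, 1.55 and 1.15 CPM. In EMT6 Ptgs2 was at 1810, 3474, 3162 and 3133 CPM in p27K high and 1475, 2344, 2241 and 2070 CPM in p27K negative cells. D2A1 tumours 1 and 2 held more Ptgs2 RNA than tumours 3 and 4 in both gates, and every D2A1 tumour was lower in the p27K high gate while every EMT6 tumour was higher. The changes were -3.20 and 0.49, a difference of -3.69 ± 0.22 (adjusted p = 5.26e-07), and without the block, where the spread of levels between tumours counts, the adjusted p was 0.209. Ptges, which acts after COX-2 in the synthesis of prostaglandin E, did not share the direction: it changed by 1.40 in D2A1 and 0.46 in EMT6, a difference of 0.94 ± 0.16 (adjusted p = 0.00538).

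Col3a1, the chain of type III collagen (chr1:45311538-45349706, plus strand), was at 43.3, 29.5, 48.1 and 19.7 CPM in D2A1 p27K high and 108, 64.9, 128 and 127 CPM in p27K negative cells. In EMT6 Col3a1 was at 1057, 1768, 1451 and 2029 CPM in p27K high and 806, 1260, 840 and 1451 CPM in p27K negative cells. All D2A1 tumours were lower and all EMT6 tumours higher in the p27K high gate, with changes of -1.68 and 0.54 and a difference of -2.22 ± 0.26 (adjusted p = 0.000281). The remaining genes that fell in D2A1 and rose in EMT6 had differences from -1.49 for Fgd3, an exchange factor for the GTPase Cdc42, to -0.46 for the actin-associated gene Palld. Between them lay the matricellular gene Wisp1 at -1.03, the scaffold gene Magi3 at -0.86, the caveolar coat gene Cavin2 at -0.70, the adhesion gene Ncam1 at -0.63 and Acsl3, which activates fatty acids, at -0.48.

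**Figure D2:**
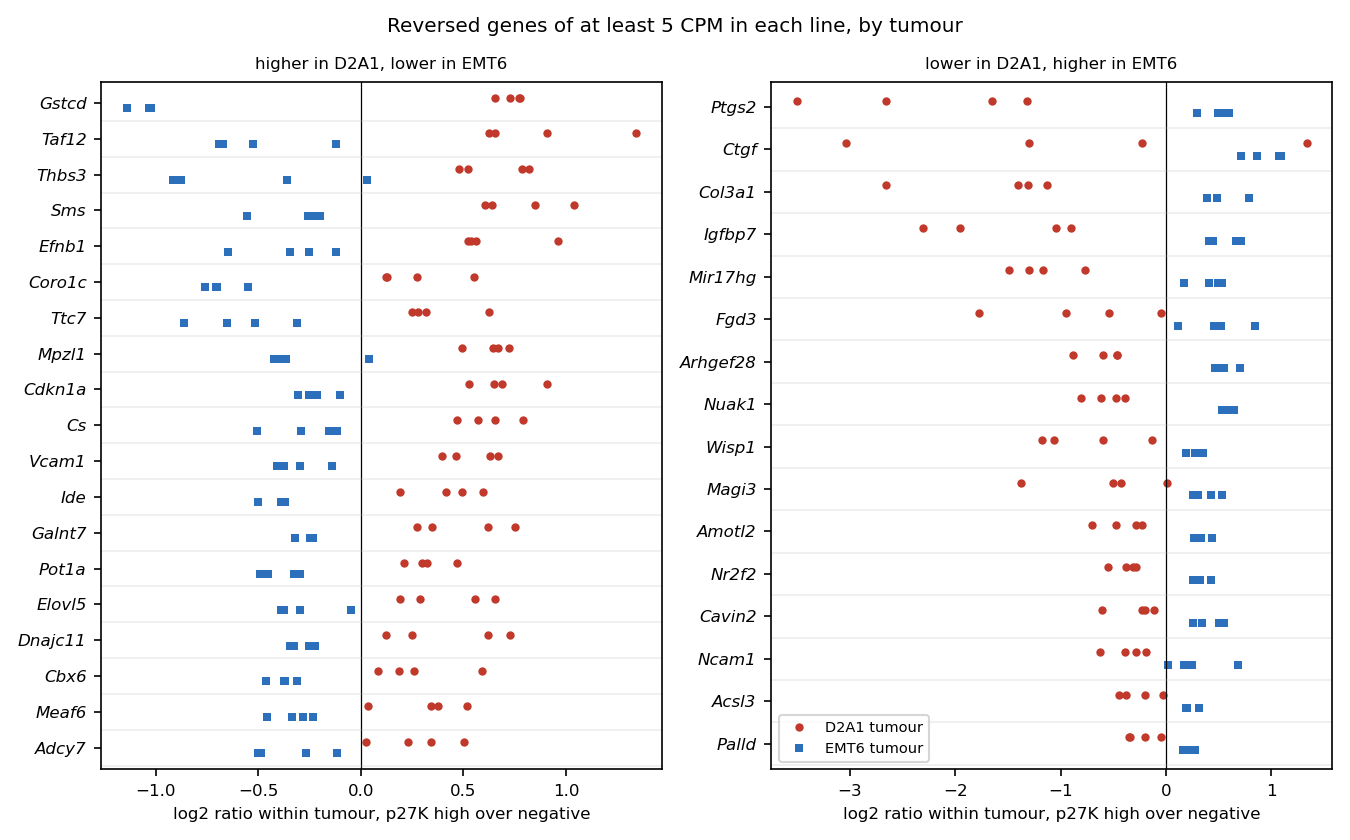
Within-tumour log2 ratio (p27K high over negative, CPM with 0.5 added) on the x axis for the 35 reversed genes with at least 5 CPM in each line, 1 dot per tumour and colour by line. The D2A1 and EMT6 dots lie on opposite sides of 0 for most genes, and the dots of Ctgf overlap between the lines.

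The genes Gstcd, Nuak1, Igfbp7, Ide, Nr2f2 and Arhgef28 stayed reversed when each of the 8 tumours was left out and with each of the other scalings, tools, filters, thinned libraries and no block. Over the same set of fits Amotl2 lost its reversal only without EMT6 tumour 2, Taf12 only when libraries were thinned to equal depth, and Ptgs2 only without the block. Of the 36, 8 stayed reversed in all 8 leave-outs and 20 under both other scalings, and 32 kept opposite signs in every setting, the exceptions being Gm7993, Magi3, Meaf6 and Pot1a. Of all 81 reversed genes, 17 stayed reversed in all 8 leave-outs, 63 under both scalings, and 74 kept opposite signs in every setting. Left out in turn, D2A1 tumours 1 to 4 gave 62, 55, 125 and 96 reversed genes, and EMT6 tumours 0, 1, 2 and 4 gave 62, 45, 39 and 59.

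The reversed genes with the most extreme differences were mostly near the limit of detection in 1 line. Among the 8 highest differences, Fam49a had 0, 0, 1 and 1 counts in EMT6 p27K high and 2, 3, 6 and 2 in p27K negative libraries, against 246 to 272 CPM in D2A1 p27K high and 130 to 163 CPM in p27K negative cells. The chemokine gene Cxcl12 had 5, 1, 7 and 3 counts in EMT6 p27K high and 9, 7, 11 and 13 in p27K negative libraries. Ereg, which encodes the EGF receptor ligand epiregulin, rested on more: it was at 248, 250, 180 and 233 CPM in D2A1 p27K high and 99.1, 109, 86.7 and 129 CPM in p27K negative cells. In EMT6 Ereg had 102, 12, 23 and 17 counts in p27K high and 156, 34, 36 and 26 in p27K negative libraries. All 4 EMT6 tumours had fewer Ereg counts in the p27K high library, and the difference was 1.75 ± 0.19 (adjusted p = 0.000169). Rundc3a, Amigo1 and Megf9 completed the 8 with Gstcd and Taf12.

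The 8 lowest differences were of genes with few counts in D2A1 or, for Zdhhc2, in EMT6. Kng2 had 0 counts in all D2A1 libraries but 1, the p27K negative library of tumour 2 with 5, so its fall in D2A1 rests on a single library. Zdhhc2 had 4, 1, 1 and 0 counts in EMT6 p27K high and 0 in all EMT6 p27K negative libraries. For Rcn3, which encodes a calcium-binding protein of the endoplasmic reticulum, D2A1 had 3, 1, 0 and 0 counts in p27K high and 4, 3, 1 and 28 in p27K negative libraries. Enpp1, an ectoenzyme that hydrolyses extracellular nucleotides, had 2, 2, 0 and 0 counts in p27K high and 5, 1, 1 and 3 in p27K negative libraries of D2A1, and 76.7, 121, 113 and 124 CPM against 39.9, 62.1, 47.7 and 64.3 CPM in EMT6. Rnase4 was the best sampled in D2A1 of those scarce there, with 2, 5, 3 and 5 counts in p27K high and 8, 17, 12 and 32 in p27K negative libraries, and 109 to 139 CPM in EMT6 p27K high cells against 84.9 to 105 CPM in p27K negative cells. Zfp618, the oestrogen receptor gene Esr1 and Arhgap29 completed the 8. For these genes the direction in the abundant line is well measured and that in the scarce line is not, and no fitted difference between the lines is given for them.

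The cell cycle genes fell in both lines, and the differences between lines were of degree. All 30 tested genes of G1/S and replication fell in each line, with a median change of -1.95 in D2A1 and -2.35 in EMT6. Only Rrm1, the large subunit of ribonucleotide reductase, and Cdc45, a part of the replicative helicase, had a called difference, both above (0.61 ± 0.11 and 0.88). Of 30 genes of G2/M and mitosis, whose median change was -4.80 and -4.96, 5 were above and 1 below, against 2.84% and 1.64% of all genes. With median-of-ratios scaling they were 4 and 4. Without D2A1 tumour 2 they were 1 and 3, and without EMT6 tumour 1 or 2 they were 1 and 0. The other leave-outs gave 3 to 6 above and 0 to 2 below. The median difference of these genes was 0.08, and -0.57 with D2A1 tumour 4 alone. Espl1, the separase that cleaves cohesin, was at 21.6, 24.3, 24.7 and 18.0 CPM in D2A1 p27K high and 133, 112, 149 and 132 CPM in p27K negative cells. In EMT6 Espl1 was at 3.00, 1.30, 1.30 and 1.21 CPM in p27K high and 74.9, 89.6, 82.1 and 94.1 CPM in p27K negative cells. The p27K high cells of D2A1 kept more Espl1 RNA, with changes of -2.58 and -5.66 and a difference of 3.08 ± 0.27 (adjusted p = 2.56e-05). The kinesin gene Kif11 changed by -4.91 and -6.35 (difference 1.44 ± 0.30, adjusted p = 0.0157), Nusap1 differed by 1.31, Ttk by 1.05 and the topoisomerase gene Top2a by 0.98, while the checkpoint kinase gene Bub1 differed by -0.79.

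Single cell cycle genes outside these lists also differed, and those named here were chosen after their values were seen. Iqgap3, a scaffold of proliferating cells, was at 5.05, 6.64, 3.47 and 7.18 CPM in D2A1 p27K high and 125, 92.7, 125 and 132 CPM in p27K negative cells. In EMT6 Iqgap3 was at 24.1, 22.6, 21.8 and 24.1 CPM in p27K high and 91.5, 93.3, 77.7 and 89.1 CPM in p27K negative cells. Here the EMT6 p27K high cells kept more RNA, a difference of -2.43 ± 0.19 (adjusted p = 1.20e-05) from changes of -4.35 and -1.92. Psrc1, a spindle protein, went the same way with -3.96 and -1.71 (difference -2.25 ± 0.29, adjusted p = 0.000535). Gins3, a subunit of the replicative helicase, was at 33, 32.4, 34.7 and 33 CPM in D2A1 p27K high and 45.0, 49.0, 42.8 and 51.8 CPM in p27K negative cells. In EMT6 Gins3 was at 3.75, 3.58, 4.94 and 3.74 CPM in p27K high and 14.2, 14.5, 16.7 and 14.3 CPM in p27K negative cells, and the difference was 1.37 ± 0.15 (adjusted p = 0.000169). Ccdc18, a centriolar satellite gene, was at 47.7, 78.2, 74.7 and 47.8 CPM in D2A1 p27K high and 59.6, 71.1, 67.1 and 34.3 CPM in p27K negative cells. In EMT6 Ccdc18 was at 0.885, 0.914, 0.312 and 0.604 CPM in p27K high and 7.49, 7.40, 7.45 and 8.05 CPM in p27K negative cells. The D2A1 gates overlapped (change 0.15, adjusted p = 0.426) and those of EMT6 were far apart (-3.53), a difference of 3.68 ± 0.28 (adjusted p = 6.24e-06).

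Most tested HIF targets and glycolysis genes rose in both lines. HIF is the transcription factor that accumulates when oxygen is low and binds the core sequence ACGTG or GCGTG. Of 29 tested targets, 21 rose and 4 fell in D2A1 and 25 rose in EMT6, with medians of 0.97 and 0.69. The difference was above for 9 and below for 4, against 2.84% and 1.64% of all genes, with a median of 0.34 against 0.08. Among the 21 targets with at least 5 CPM in each line it was above for 9 and below for none, against 3.98% and 1.15% of all genes at that level. The refit with a floor of 5 CPM in each line, taken there without TMM correction, held 22 targets, 9 above and 1 below. With total counts or median-of-ratios scaling the difference was above for 6 and below for 4 of the 29. Slc2a1, the glucose transporter GLUT1, was at 817, 1128, 1032 and 716 CPM in D2A1 p27K high and 262, 296, 219 and 238 CPM in p27K negative cells. In EMT6 Slc2a1 was at 822, 927, 1008 and 797 CPM in p27K high and 428, 479, 568 and 444 CPM in p27K negative cells. The p27K high levels of the 2 lines overlapped while the p27K negative levels did not, and the changes of 1.84 and 0.89 differed by 0.95 ± 0.14 (adjusted p = 0.00182).

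Bnip3, a receptor for the removal of mitochondria, was at 317, 365, 258 and 379 CPM in D2A1 p27K high and 88.0, 117, 72.7 and 118 CPM in p27K negative cells. In EMT6 Bnip3 was at 369, 460, 454 and 430 CPM in p27K high and 175, 225, 261 and 250 CPM in p27K negative cells. The changes of 1.74 and 0.92 differed by 0.82 ± 0.12 (adjusted p = 0.00155). Ankrd37, an ankyrin repeat gene induced by hypoxia, was at 39.7, 52.4, 72.6 and 46.2 CPM in D2A1 p27K high and 9.70, 12.4, 10.8 and 14.6 CPM in p27K negative cells. In EMT6 Ankrd37 was at 34.0, 37.0, 49.1 and 38.9 CPM in p27K high and 19.7, 20.0, 27 and 21.8 CPM in p27K negative cells. The pattern was that of Slc2a1, with overlapping p27K high levels and a difference of 1.16 ± 0.18 (adjusted p = 0.00295). Ddit4, an inhibitor of mTORC1 that p53 and hypoxia induce, was at 143, 142, 180 and 140 CPM in D2A1 p27K high and 70.7, 83.0, 63.4 and 60.0 CPM in p27K negative cells. In EMT6 Ddit4 was at 220, 179, 206 and 166 CPM in p27K high and 168, 150, 218 and 148 CPM in p27K negative cells. It rose by 1.13 in D2A1, while its change of 0.18 in EMT6 did not pass (adjusted p = 0.210), and the difference was 0.95 ± 0.15 (adjusted p = 0.00335).

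The promoters of these 4 targets are printed as the regulatory sequence the group has in common. Each is the RefSeq window on GRCm38.p6 from 250 bases before to 50 after the annotated start, in the direction of transcription, with ACGTG or GCGTG and their reverse complements CACGT and CACGC in capitals. Slc2a1 is chr4:119108495-119108794 (plus strand), Bnip3 chr7:138909457-138909756 (minus), Ankrd37 chr8:45999801-46000100 (minus) and Ddit4 chr10:59951721-59952020 (minus).
Slc2a1: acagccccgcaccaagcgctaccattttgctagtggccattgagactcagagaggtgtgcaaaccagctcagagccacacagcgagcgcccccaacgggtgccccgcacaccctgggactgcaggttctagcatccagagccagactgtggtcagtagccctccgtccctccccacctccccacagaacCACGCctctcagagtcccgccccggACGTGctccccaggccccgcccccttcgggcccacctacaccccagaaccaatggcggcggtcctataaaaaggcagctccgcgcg
Bnip3: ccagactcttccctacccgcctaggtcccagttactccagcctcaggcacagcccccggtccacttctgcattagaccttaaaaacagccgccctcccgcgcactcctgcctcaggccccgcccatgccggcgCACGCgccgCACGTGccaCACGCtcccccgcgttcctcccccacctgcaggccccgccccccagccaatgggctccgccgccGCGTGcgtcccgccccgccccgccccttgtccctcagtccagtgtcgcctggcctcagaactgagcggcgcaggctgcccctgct
Ankrd37: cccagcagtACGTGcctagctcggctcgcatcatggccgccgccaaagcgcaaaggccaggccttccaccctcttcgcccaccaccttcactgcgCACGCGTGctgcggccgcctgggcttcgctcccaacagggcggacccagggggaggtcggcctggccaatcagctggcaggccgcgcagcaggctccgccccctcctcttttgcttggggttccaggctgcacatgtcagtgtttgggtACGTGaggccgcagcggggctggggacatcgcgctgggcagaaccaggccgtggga
Ddit4: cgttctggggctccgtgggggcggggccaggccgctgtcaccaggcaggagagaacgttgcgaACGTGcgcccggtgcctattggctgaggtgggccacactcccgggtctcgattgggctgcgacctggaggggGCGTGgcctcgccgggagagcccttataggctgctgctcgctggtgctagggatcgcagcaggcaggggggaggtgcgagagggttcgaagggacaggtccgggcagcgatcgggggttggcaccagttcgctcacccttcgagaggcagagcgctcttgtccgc

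The windows held 2 matches for Slc2a1, 5 for Bnip3, 4 for Ankrd37 and 2 for Ddit4, overlapping matches on the 2 strands counted each. The Bnip3 window has CACGTG, which reads the same on both strands. Of the 9 HIF targets above, 8 were in the RefSeq table and all 8 held the core, but so did 21 of the 22 matched targets among the 29, both of the matched targets below EMT6, 43.8% of all 32851 windows and 46.7% of genes with any window. The core was thus not particular to the targets above. These matches are letters in a window and show neither binding nor a cause. CACGTG alone was in 7.2% of windows.

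Ero1l, an oxidase of protein folding in the endoplasmic reticulum, was at 824, 981, 613 and 842 CPM in D2A1 p27K high and 269, 325, 247 and 202 CPM in p27K negative cells, and at 800, 1021, 1058 and 940 against 497, 494, 612 and 547 CPM in EMT6. Its difference was 0.83 ± 0.15 (adjusted p = 0.00791). P4ha2, which hydroxylates collagen prolines, differed by 0.61, the MYC antagonist gene Mxi1 by 0.53, Vegfa, the angiogenic factor, by 0.50 and Egln1, the oxygen sensor that marks HIF for decay, by 0.48. The calls of Vegfa, Mxi1 and Egln1 were lost with total counts and with median-of-ratios scaling. The 4 targets below EMT6 were the matrix cross-linking genes Lox and Loxl2, the peptide hormone gene Adm and the aldolase gene Aldoc, none of which reached 5 CPM in each line. Aldoc had 17, 27, 8 and 11 counts in D2A1 p27K high and 3, 9, 0 and 14 in p27K negative libraries.

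Of 21 glycolysis genes 16 rose and 1 fell in D2A1, and 15 rose and 1 fell in EMT6. The difference was above for 5 and below for 2, against 2.84% and 1.64% of all genes, with a median of 0.39 against 0.08. An unadjusted p under 0.05 was found for 19 of the 21, and for 2788 of all 14830 genes. With total counts or median-of-ratios scaling the difference was above for 4 and below for 2. Leaving out 1 tumour at a time gave 1 to 7 above and 0 to 3 below. The counts were 1 and 2 without EMT6 tumour 2 and 2 and 2 without EMT6 tumour 1. In thinned libraries, with 20 of the genes tested, they were 1 and 1. The 5 were Slc2a1, the enolase gene Eno2 at 0.69 ± 0.14, the phosphofructokinase gene Pfkp at 0.68, the triosephosphate isomerase gene Tpi1 at 0.56 and the glucose-6-phosphate isomerase gene Gpi1 at 0.50. The within-tumour ratios of D2A1 lay above all those of EMT6 for 14 of the 21 genes and below for 2, where 10.7% and 4.01% of all genes did so. Pgk1, phosphoglycerate kinase, rose in both lines (0.76 and 0.51) with a difference of 0.25 that did not pass (adjusted p = 0.229). Slc16a3, which exports lactate, was below, at -1.58.

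**Figure D3:**
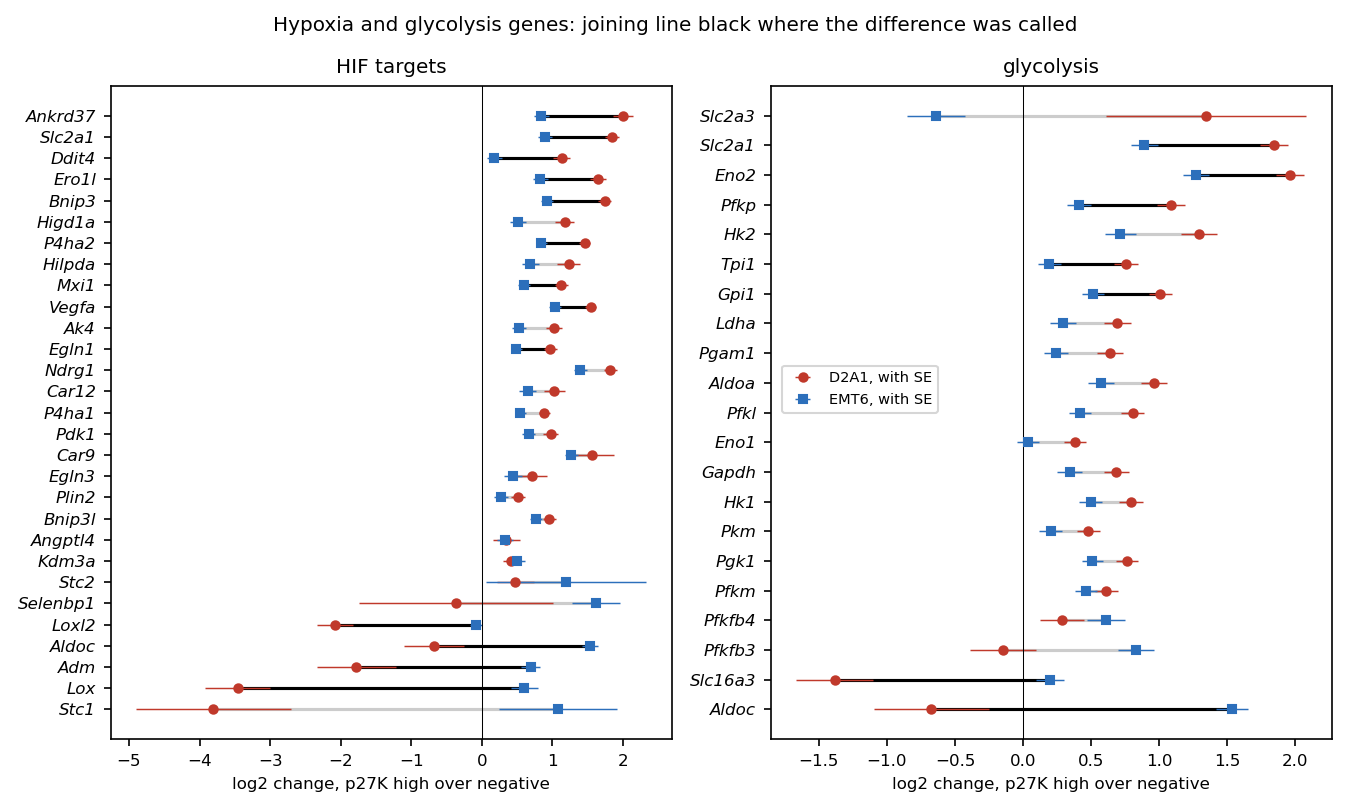
Gate change (log2, p27K high minus negative, with standard error) of HIF targets and glycolysis genes in D2A1 and in EMT6, 1 gene per line and colour by line, with a black line joining the 2 values where the difference was called. Slc2a1, Ankrd37, Bnip3 and Ddit4 lie further right in D2A1, and the joined genes with D2A1 on the left are Lox, Loxl2, Adm, Aldoc and Slc16a3.

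Of 28 genes of CDK inhibition and quiescence 18 rose and 2 fell in D2A1 and 14 rose and 5 fell in EMT6. Over all genes 20.9% rose and 14.9% fell in D2A1 and 15.4% rose and 16.3% fell in EMT6. The difference was above for 4 of the 28 (3 with total counts or median-of-ratios scaling) and below for none, against 2.84% and 1.64% of all genes. Besides Cdkn1a these were the growth arrest gene Gas1 (changes 1.44 and 0.74), the transcription factor gene Klf9 (1.56 and 0.70) and the cyclin gene Ccnd3, whose difference of 0.48 had an adjusted p of 0.0458. Klf9 was at 116, 120, 147 and 129 CPM in D2A1 p27K high and 42.9, 46.8, 38.2 and 44.1 CPM in p27K negative cells. In EMT6 Klf9 was at 86.0, 57.6, 68.5 and 62.0 CPM in p27K high and 37.6, 40.0, 44.9 and 45.1 CPM in p27K negative cells. EMT6 tumour 0 stood nearest to D2A1, and the difference was 0.86 ± 0.18 (adjusted p = 0.0134). Of 23 p53 targets 10 rose and 2 fell in D2A1 and 7 rose and 6 fell in EMT6. Their difference was above for Cdkn1a, Ddit4 and Phlda3, an inhibitor of AKT (changes 0.82 and -0.05), and below for none, against 2.84% and 1.64% of all genes. The medians of the p53 list were 0.45 in D2A1 and -0.04 in EMT6.

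Of 21 glucocorticoid response genes 16 rose and 1 fell in each line. Over all genes 20.9% rose and 14.9% fell in D2A1 and 15.4% rose and 16.3% fell in EMT6. Of the 21, 3 were above and none below, against 2.84% and 1.64% of all genes. The same numbers were called with total counts, median-of-ratios scaling and DESeq2 for these 21 genes. Cebpd, a transcription factor of acute inflammation, was at 88.6, 105, 155 and 125 CPM in D2A1 p27K high and 20.1, 14.1, 17.5 and 19.5 CPM in p27K negative cells. In EMT6 Cebpd was at 11.4, 14.5, 16.2 and 15.8 CPM in p27K high and 5.36, 8.67, 6.97 and 6.96 CPM in p27K negative cells. It rose in both lines and more in D2A1, by 2.73 and 1.06, a difference of 1.68 ± 0.19 (adjusted p = 0.000209).

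The extracellular matrix genes split by gene. Of 29 collagen chains 11 rose and 6 fell in D2A1 and 11 rose and 2 fell in EMT6. The difference was above for Col5a1 (0.62), Col6a1 (0.50), Col6a2 (0.55) and Col16a1 (0.51) and below for Col1a1 (-1.50), Col1a2 (-4.09), Col3a1 (-2.22) and Col5a2 (-4.40), against 2.84% and 1.64% of all genes. With total counts or median-of-ratios scaling the same 4 were below, while Col6a1 and Col6a2 were no longer called above. Without the block, in thinned libraries or without EMT6 tumour 1, no chain was above. Without D2A1 tumour 1, D2A1 tumour 2 or EMT6 tumour 4, 1 was above. Without D2A1 tumour 4 or EMT6 tumour 0, 5 were above. In each of these fits 4 chains were below. The chains of type I and type III collagen, the main fibrils of connective tissue, thus fell in the p27K high cells of D2A1, and Col5a1, Col6a1, Col6a2 and Col16a1 rose in both lines. Col1a2 was at 6.35, 25.4, 7.39 and 3.59 CPM in D2A1 p27K high and 122, 135, 115 and 106 CPM in p27K negative cells. In EMT6 Col1a2 was at 4975, 4813, 4293 and 5709 CPM in p27K high and 4149, 4014, 3419 and 4472 CPM in p27K negative cells. The D2A1 change was -3.78 and that of EMT6 was 0.30, which did not pass (adjusted p = 0.326), a difference of -4.09 ± 0.36 (adjusted p = 2.56e-05).

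Col1a1, its partner in type I collagen, was at 83.1, 66.1, 87.4 and 39.4 CPM in D2A1 p27K high and 181, 116, 209 and 157 CPM in p27K negative cells. In EMT6 Col1a1 was at 1282, 1591, 1371 and 1902 CPM in p27K high and 1171, 1439, 1135 and 1671 CPM in p27K negative cells. The difference was -1.50 ± 0.19 (adjusted p = 0.000611). Col5a2 was at 0.200, 0.609, 0.302 and 0.489 CPM in D2A1 p27K high and 35.3, 18.1, 31.5 and 21.4 CPM in p27K negative cells, from 4, 10, 2 and 9 against 51, 41, 61 and 352 counts. Col5a1, which pairs with Col5a2 in type V collagen, was instead abundant in D2A1, at 3309, 3025, 2617 and 3438 CPM in p27K high and 1326, 1342, 1296 and 1679 CPM in p27K negative cells. In EMT6 Col5a1 was at 381, 525, 427 and 553 CPM in p27K high and 255, 404, 274 and 401 CPM in p27K negative cells. It rose in both lines, by 1.13 and 0.51, and the difference was 0.62 ± 0.12 (adjusted p = 0.0101).

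**Figure D4:**
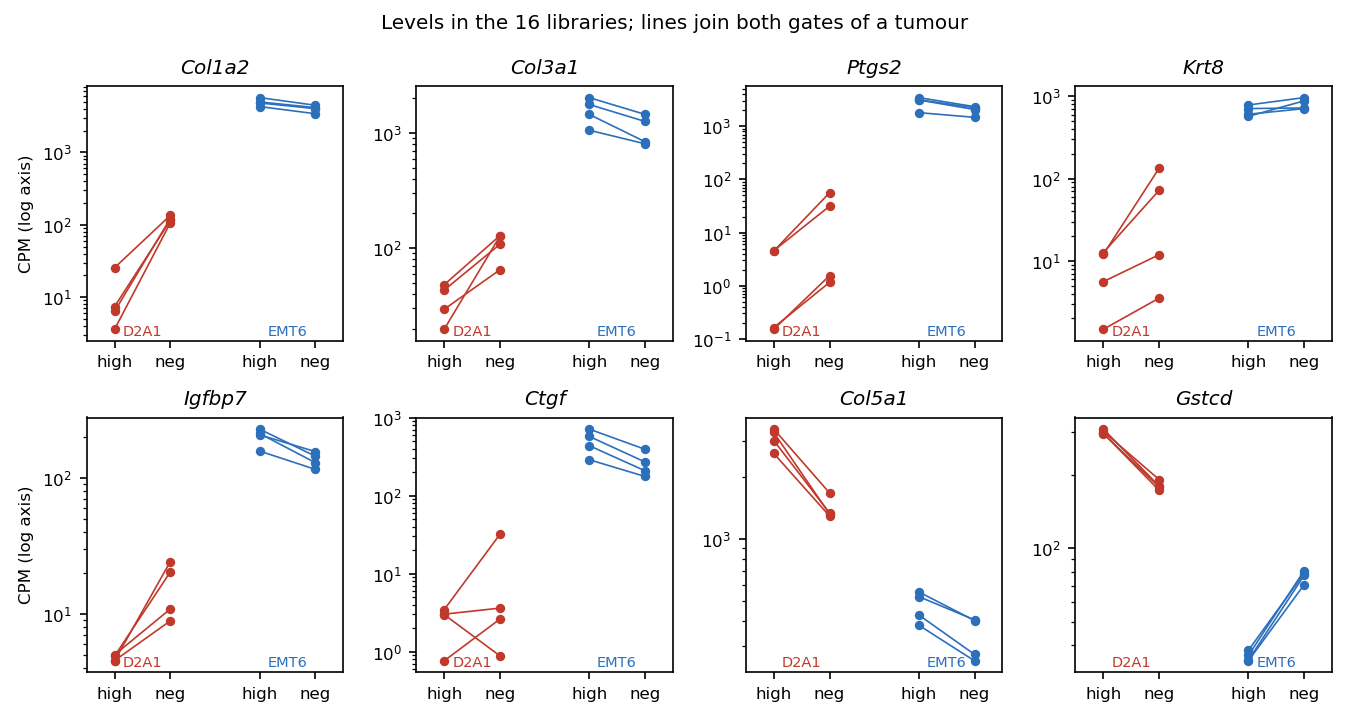
Level (CPM, log axis) of Col1a2, Col3a1, Ptgs2, Krt8, Igfbp7, Ctgf, Col5a1 and Gstcd in every library, with a line joining the p27K high and negative library of each tumour and colour by line. Gstcd and Col5a1 rise in D2A1, Col1a2, Col3a1, Ptgs2, Krt8 and Igfbp7 are lower in the p27K high libraries of all 4 D2A1 tumours, and the D2A1 lines of Ctgf cross.

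Some markers of other cells moved with the collagen genes in D2A1, and their part in the result was not tested. Of 18 fibroblast markers tested, 6 were below (the collagens Col1a1, Col1a2 and Col3a1, with Dcn, Pdpn and Acta2) and 2 above (Pdgfrb at 0.64 and Lrrc15 at 1.34), against 1.64% and 2.84% of all genes. The 20 markers summed to 1366 to 1592 CPM in D2A1 p27K high and 1033 to 1218 CPM in p27K negative libraries, and to 8678 to 11598 and 6701 to 9163 CPM in EMT6, so the sum was higher in the p27K high gate of D2A1. Pdgfra, a defining fibroblast receptor, had means of 519 and 233 CPM in D2A1 (p27K high, negative) and 238 and 137 CPM in EMT6. Pdpn had 5, 33, 0 and 0 counts in D2A1 p27K high and 3, 47, 9 and 24 in p27K negative libraries, with means of 217 and 208 CPM in EMT6. Of 9 endothelial markers tested, 4 fell and 1 rose in D2A1, against 14.9% and 20.9% of all genes. Pecam1 was at 0.699, 0.243, 0.452 and 1.79 CPM in D2A1 p27K high and 8.30, 3.09, 2.58 and 3.39 CPM in p27K negative libraries, the latter from 12, 7, 5 and 56 counts. Cdh5 was at 0.799, 0.0610, 0.452 and 1.25 CPM against 6.91, 3.97, 3.61 and 3.45 CPM, the latter from 10, 9, 7 and 57 counts. Cd34, listed here with the fibroblast markers, was at 0.549, 0.487, 0.151 and 0.489 against 5.53, 2.65, 4.12 and 2.91 CPM, the latter from 8, 6, 8 and 48 counts. The 10 pericyte and smooth muscle markers summed to 11.2 to 16.8 CPM in D2A1 p27K high and 26.3 to 31.4 CPM in p27K negative libraries, with Acta2 (-0.78) and Mcam (-2.40) below. The 25 macrophage markers summed to 151 to 196 CPM in D2A1 p27K high and 83.7 to 150 CPM in p27K negative libraries, yet of the 19 tested 1 rose and 4 fell in D2A1, with a median change of -0.65.

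Genes that process collagen had 4 above and 4 below of 29, against 2.84% and 1.64% of all genes. Above were P4ha2, Loxl3, P3h4 and Bmp1, which cleaves procollagen (0.58), and below Lox, Loxl1, Loxl2 and Adamts2. Among the 21 with at least 5 CPM in each line 4 were above and none below. The refit with that floor, taken there without TMM correction, held 22 of these genes, 4 above and 1 below. P3h4 lost its call with total counts (adjusted p = 0.0772, edgeR), median-of-ratios scaling (0.0811, edgeR), DESeq2 (0.0762) and limma voom (0.0895). It kept the call in no leave-out but that of D2A1 tumour 3. Adamts2, which removes the propeptide of fibrillar collagens, had 0, 2, 0 and 0 counts in D2A1 p27K high and 17, 5, 26 and 110 in p27K negative libraries. In EMT6 Adamts2 had 42, 118, 177 and 125 counts in p27K high and 79, 130, 60 and 119 in p27K negative libraries, with no common direction. Loxl1 was at 0.849, 0.913, 2.26 and 0.544 CPM in D2A1 p27K high and 4.85, 3.53, 7.22 and 4.07 CPM in p27K negative cells, against 36.8, 30.4, 35.3 and 34.7 and 27.1, 27.2, 26.3 and 26.2 CPM in EMT6. Its difference was -2.66 ± 0.28 (adjusted p = 0.000131).

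Of 39 matrix glycoproteins 15 rose and 9 fell in D2A1 and 16 rose and 4 fell in EMT6, with 4 differences above and 5 below, against 2.84% and 1.64% of all genes. Above were Tnc, tenascin C (1.73), Thbs3, Fbln1 (0.92) and Ecm1 (0.54). Below were Thbs2, Fbn1 (fibrillin 1, -1.43), the elastin gene Eln, Nid1 and Lama4. Thbs2, a thrombospondin that restrains angiogenesis, was at 16.4, 24.1, 18.1 and 15.5 CPM in D2A1 p27K high and 31.9, 9.27, 23.7 and 14.7 CPM in p27K negative cells. In EMT6 Thbs2 was at 160, 118, 101 and 142 CPM in p27K high and 41.9, 41.9, 30.2 and 44.9 CPM in p27K negative cells. The D2A1 gates overlapped and the EMT6 gates were far apart, with changes of -0.01 and 1.71 and a difference of -1.71 ± 0.29 (adjusted p = 0.00425). Dcn, the proteoglycan decorin, had the same form: it changed by 0.08 in D2A1 and 2.02 in EMT6, a difference of -1.94 ± 0.44 (adjusted p = 0.0243). Of 30 matrix proteases and inhibitors 4 were above, the stromelysin gene Mmp11 (0.69), the sheddase gene Adam17, Adamts4 (0.72) and Adamts7 (0.85), and Adam12 was below (-0.71), against the same shares of all genes.

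The keratin genes called between the lines were all below EMT6. Of 17 tested epithelial genes 5 were below, Krt7, Krt8, Krt14, Krt19 and Dsp, and none above, against 1.64% and 2.84% of all genes. Only 5 of the 17 reached 5 CPM in each line. Krt8, a keratin of simple epithelia, was at 12.0, 12.6, 5.58 and 1.47 CPM in D2A1 p27K high and 134, 72.0, 11.9 and 3.52 CPM in p27K negative cells. In EMT6 Krt8 was at 571, 710, 784 and 606 CPM in p27K high and 881, 722, 965 and 709 CPM in p27K negative cells. D2A1 tumours 1 and 2 held most of the keratin and the widest gap, and the changes of -2.51 and -0.29 (the latter with adjusted p = 0.264) differed by -2.21 ± 0.34 (adjusted p = 0.00217). Without the block the adjusted p for Krt8 was 0.301, and D2A1 tumour 4 alone gave -0.97. Krt7 rested on D2A1 tumour 1: its counts were 140, 3, 1 and 1 in p27K high and 204, 1, 0 and 2 in p27K negative libraries, and its call was lost without that tumour. Without the block edgeR called none of the list, with 4 at an unadjusted p under 0.05. Epcam was near the threshold at an adjusted p of 0.0508, with means of 0.597 and 2.92 CPM in D2A1 and 2.20 and 2.01 CPM in EMT6.

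Of 24 YAP and TAZ targets 4 were below (Ankrd1, Amotl2, Ajuba and Ctgf) and none above, against 1.64% and 2.84% of all genes. The count below was also 4 with total counts, median-of-ratios scaling and DESeq2, and 1 without the block. Ankrd1, a muscle ankyrin repeat gene, changed by -2.03 and -0.30, and Ajuba, a LIM protein that restrains the LATS kinases, by -0.73 and -0.02. Of 36 WNT pathway genes 6 were below, the ligand genes Wnt5a, Wnt10a and Wnt10b, the receptor genes Fzd1 and Fzd7 and the inhibitor gene Sfrp1, and none above, against 1.64% and 2.84% of all genes. Of the 19 with at least 5 CPM in each line 1 was below, and without the block 1 of the 36 was. Fzd1 was at 0.650, 1.16, 0.604 and 1.03 CPM in D2A1 p27K high and 7.62, 6.18, 2.58 and 1.70 CPM in p27K negative cells. In EMT6 Fzd1 was at 70.1, 75.1, 71.5 and 76.6 CPM in p27K high and 42.7, 58.6, 45.7 and 60.7 CPM in p27K negative cells, a difference of -2.49 ± 0.43 (adjusted p = 0.00538). Wnt10b had 5, 18, 2 and 2 counts in D2A1 p27K high and 0, 15, 0 and 4 in p27K negative libraries, which gives no direction there.

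Of 36 genes of the TGF-beta and BMP pathway 2 were above and 4 below, against 2.84% and 1.64% of all genes. Tgfbr3, the coreceptor betaglycan, was at 165, 176, 131 and 213 CPM in D2A1 p27K high and 52.6, 57.8, 41.3 and 59.1 CPM in p27K negative cells. In EMT6 Tgfbr3 was at 150, 155, 135 and 149 CPM in p27K high and 94.6, 90.1, 88.9 and 94.9 CPM in p27K negative cells. It rose in both lines, by 1.71 and 0.68, and the difference was 1.03 ± 0.12 (adjusted p = 0.000179). Below were the activin subunit gene Inhbb, the follistatin-like gene Fstl1, the BMP antagonist gene Grem1 and Ctgf. Inhbb had 17, 6, 1 and 10 counts in D2A1 p27K high and 5, 2, 6 and 36 in p27K negative libraries. In EMT6 Inhbb was at 31.5, 22, 27.3 and 26.6 CPM in p27K high and 19.0, 14.1, 12.5 and 14.6 CPM in p27K negative cells, a rise in all 4 tumours. Of 24 mesenchymal and contractile genes 3 were above, among them Twist1, a transcription factor of the epithelial-mesenchymal transition (1.21 and 0.50, difference 0.71, adjusted p = 0.00898), with S100a4 (0.86) and Pdgfrb (0.64), and 4 below, Acta2, Cnn2, Tpm1 (-0.56) and Tpm2 (-1.39), which encode contractile proteins.

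Several inflammatory genes had a larger gate change in D2A1. Of 35 genes of the NF-kB and acute phase list 5 were above (Nfkbia, Tnfaip2, Vcam1, Saa3 and Csf3) and Ptgs2 was below, against 2.84% and 1.64% of all genes. Nfkbia, the inhibitor that NF-kB itself induces, was at 297, 286, 482 and 336 CPM in D2A1 p27K high and 172, 177, 207 and 229 CPM in p27K negative cells. In EMT6 Nfkbia was at 295, 312, 212 and 319 CPM in p27K high and 259, 269, 241 and 307 CPM in p27K negative cells. EMT6 tumour 2 went down while the other 3 went slightly up, and the difference was 0.74 ± 0.15 (adjusted p = 0.0133). Csf3, the granulocyte colony-stimulating factor, had 178, 152, 64 and 65 counts in D2A1 p27K high and 2, 0, 5 and 7 in p27K negative libraries. In EMT6 Csf3 had 63, 192, 158 and 230 counts in p27K high and 72, 131, 91 and 140 in p27K negative libraries. Each D2A1 ratio exceeded each EMT6 ratio, and the difference was 2.38 ± 0.46 (adjusted p = 0.00955).

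Saa3, an acute phase protein, was at 23.4, 24.7, 54.5 and 11.0 CPM in D2A1 p27K high and 8.31, 9.27, 5.16 and 3.03 CPM in p27K negative cells, and at most 1.82 CPM in any EMT6 library. The difference was 2.10 ± 0.43 (adjusted p = 0.0136). Il33, an alarmin, was at 9.79, 10.5, 10.1 and 13.8 CPM in D2A1 p27K high and 2.77, 2.21, 4.64 and 2.31 CPM in p27K negative cells. In EMT6 Il33 was at 317, 71.2, 101 and 117 CPM in p27K high and 325, 40.7, 54.5 and 60.6 CPM in p27K negative cells, where tumour 0 stood apart in level and did not share the rise. Its difference was 1.59 ± 0.35 (adjusted p = 0.0227). Of 35 chemokines and cytokines 3 were above, Csf3, Il33 and Cxcl12, and none below, against 2.84% and 1.64% of all genes. Of 50 interferon-stimulated genes none rose and 8 fell in D2A1 and 11 rose and 8 fell in EMT6, with 1 difference above, Ifit2 (0.21 and -0.65), and 2 below, the RNA sensor gene Ifih1 (-1.29 and 0.06) and Trim30a (-0.37 and 0.50), or 1 and 4 with total counts. Counts of 1 and 2 in 50 are near the 2.84% and 1.64% of all genes. Of 23 genes of MHC class I and its peptide processing 1 was above, Tapbpl (0.71), and none with total counts or median-of-ratios scaling.

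Several gene lists had no or 1 called difference. None of the 50 cytosolic ribosomal protein genes differed by edgeR, at an unadjusted p under 0.05 or by DESeq2, while limma voom called 3 below. That count of 0 turned on D2A1 tumour 3: without it 19 of the 50 were below, 34 had an unadjusted p under 0.05 and the median difference was -0.28, against -0.04 with all tumours. None of 39 oxidative phosphorylation genes differed by edgeR, DESeq2 or limma voom, with 8 at an unadjusted p under 0.05, although 5 fell in D2A1 and 20 fell in EMT6, and without D2A1 tumour 4, 3 were above. Their median difference was 0.26, against 0.08 over all genes, and -0.03 with D2A1 tumour 4 alone. None of 25 unfolded protein response genes differed by edgeR (5 at an unadjusted p under 0.05, 1 below by DESeq2, 1 above by limma voom). None of 25 cholesterol synthesis genes did either (2 at an unadjusted p under 0.05, 0 by DESeq2, 1 below by limma voom), nor any of 9 MHC class II genes (3, 0 and 1 below). Of 34 genes of MYC and ribosome biogenesis 28 fell in D2A1 and 29 in EMT6, and 1, the dyskerin gene Dkc1, was below (-1.35 and -0.87), or 4 with total counts. A difference that did not pass here does not show that the lines respond alike.

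**Figure D5:**
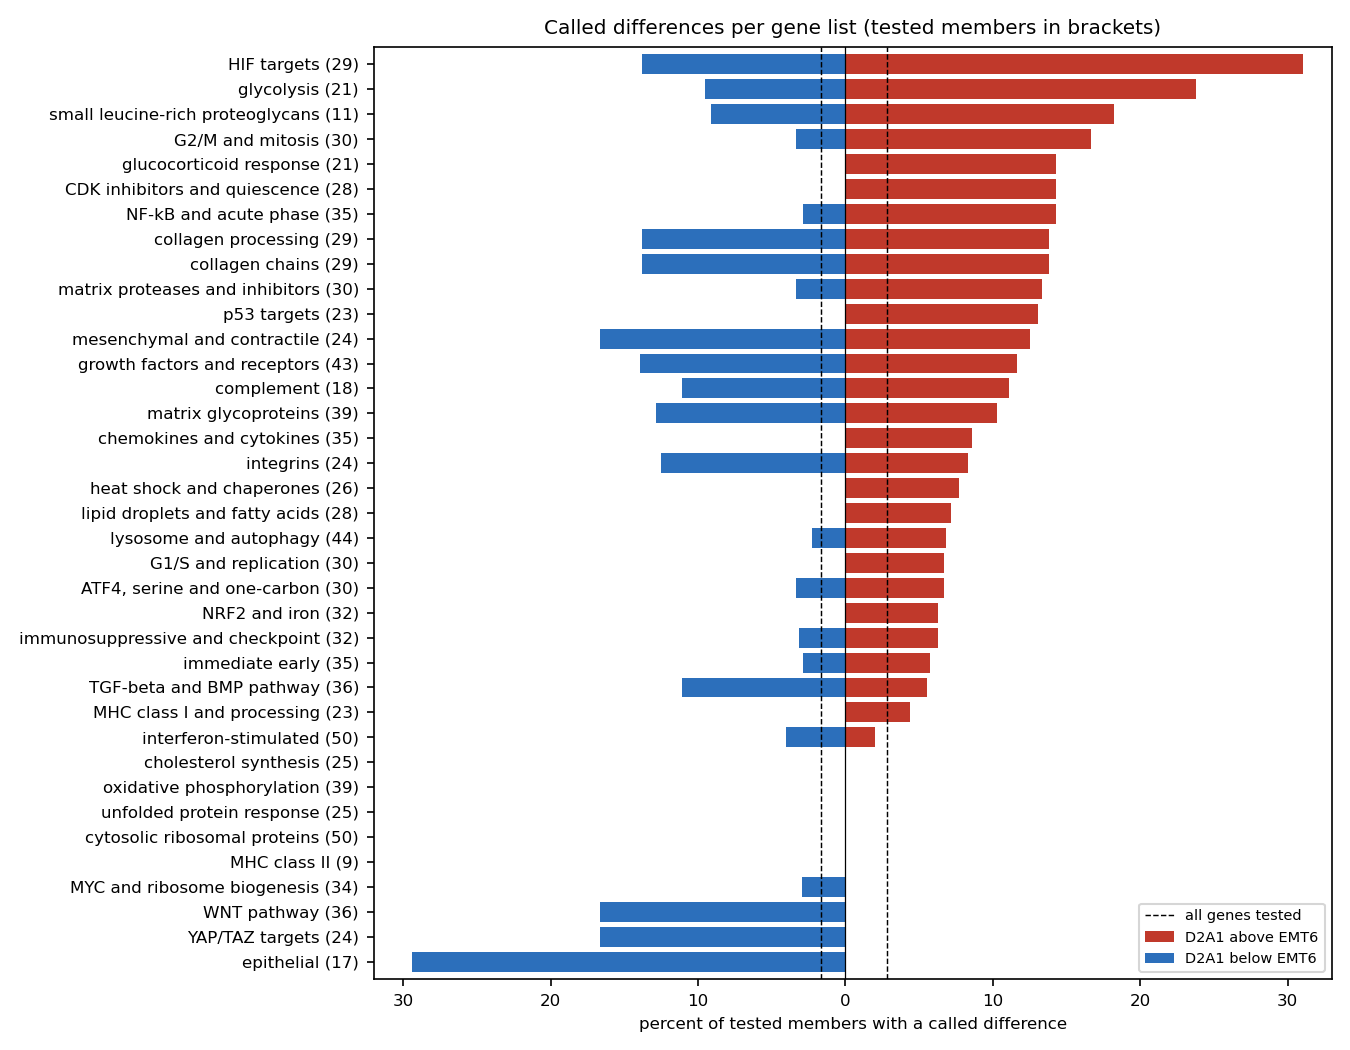
Percentage of the tested members of each gene list whose difference was called, above EMT6 to the right and below to the left, with dashed lines at the 2.84% and 1.64% of all genes. HIF targets and glycolysis reach furthest above, epithelial genes, WNT genes, YAP targets and MYC genes have calls on the side below alone, and collagen chains on both.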

How the data were processed

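RNA of sorted tumour cells was sequenced by a service provider, which also made the gene count matrices, per the labels' protocols. The deposited values are whole-number counts per gene that the authors did not normalize, in 1 table for D2A1 and 1 for EMT6 with the same 49316 entries. The submitters' processing notes name mm10 and DESeq2, while for the aligner, the counter and the use of strand a statement is not given in the sources used, so overlapping and near-identical genes may share reads. The 176 nameless entries were left out, with no more than 0.0109% of any D2A1 total and 0.00885% of any EMT6 total, as were 4 entries named by a date, and 94 symbols on several entries were summed, which gave 49038 symbols.

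Groups came from the line and gate in the labels. The 2 gates of a D2A1 tumour share its number in the labels, and those of EMT6 were paired by the number in the column name, which differs from the number in the titles. Libraries of the same number deviated together (r of 0.162, 0.251, 0.102 and 0.322 in D2A1 and 0.599, 0.571, 0.801 and 0.516 in EMT6 over 5000 genes), each correlating best with its own number. All 16 libraries entered 1 fit with edgeR 4.0.16 (R 4.3.3, limma 3.58.1): TMM scaling, the default filter on low counts, the tumour as a block, a gate term for each line and their difference as the contrast. The quasi-likelihood F test was adjusted by Benjamini-Hochberg over 14830 genes and called at an adjusted p under 0.05, so a p-value sets the difference against how much the gate change varied among tumours. A reversed gene passed in both lines in opposite directions and in the difference. A standard error is the size of the change over the square root of F. Ratios within a tumour were taken of CPM with 0.5 added. The fit was tested on simulated counts.

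Alternatives were no block, total count and median-of-ratios scaling, DESeq2 1.42.0, limma voom with quality weights, no filter, a filter of 5 CPM in 4 libraries, thinning to the shallowest library and each tumour left out. A floor of 5 CPM in each line and D2A1 tumour 4 alone were added after seeing the data. Genes named by rule, which passes over predicted and ribosomal protein genes and asks for a mean of at least 5 CPM, are the 8 highest and 8 lowest differences among reversed genes and among other called genes, up to 4 members of each list by smallest p, the check genes of the gate and the 2 most abundant members of each marker list. All other genes were named after their values were seen. The comparison, the gene lists and the rules were chosen with earlier results of these data known. Gene positions are from GENCODE vM21 (GRCm38, the same assembly as mm10), and promoter windows from RefSeq. The third line of the series was not analysed here. Results for a few genes are not reported here.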

Additional observations from a re-analysis of the deposited data

Results flagged for a closer look

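The gate change differed between the lines for 664 genes and reversed for 81, as described above.

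Of 70 sets of 4 tumours or libraries checked, 5 held 1 value set apart from the other 3 by Dixon's test at the 95% level, where chance marks about 1 in 20. The p27K negative library of D2A1 tumour 4 held 15641189 counts, against 1335433 to 2110563 in the other 3 tumours. The Cdkn1b ratio of D2A1 tumour 4 was the highest of its line at 0.70. The Cxcl12 ratio of D2A1 tumour 2 was the lowest of its line at 0.18. The Enpp1 ratio of EMT6 tumour 2 was the highest of its line at 1.24. Kng2 had a ratio of -2.44 in D2A1 tumour 2, where the p27K negative library held 5 counts of it, with 0 in each of the other 3 D2A1 p27K negative libraries.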

How the results depend on the processing

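The count of called differences was 664 and that of reversed genes 81. Without the replicate block that pairs the gates of a tumour they were 177 and 22, with limma voom 1409 and 186, with libraries thinned to the shallowest 158 and 37, and with a floor of 5 CPM in each line, added after seeing the data, 430 and 44. Without the filter on low counts 1162 differences were called. Leaving out 1 tumour at a time gave 267 to 1139 differences and 39 to 125 reversed genes. The gate change in EMT6 was called for 7201 genes with limma voom and 2505 in thinned libraries. The differences of P3h4 in thinned libraries (-0.24) and of Shtn1 (1.46), Spint1 (0.0129), Lad1 (0.0496) and Itgb6 (0.60) with D2A1 tumour 4 alone changed sign, from above 0 for P3h4 and from below 0 for the other 4. Thinning and the fit of 1 D2A1 tumour use fewer counts or samples, and for the other settings the cause was not tested. Of the 36 reversed genes with at least 5 CPM in each line, 7 stayed reversed under all the scalings, tools, filters, thinning and no block, as did 10 of all 81. Of 139 called list members, 51 kept their call in all 8 leave-outs and 22 in these and the other settings together. Depth limits D2A1 most: a library of 1335433 counts leaves genes of few CPM with a handful of reads, so directions of scarce genes there are imprecise, and a difference that was not called may have been too small to detect. Each group has 4 tumours.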

Other observations

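Growth factor genes split between the lines. Of 43 growth factors and receptors, 5 were above EMT6 and 6 below, against 2.84% and 1.64% of all genes. With total counts or median-of-ratios scaling these counts were 2 and 6. Above were Igfbp4, a secreted binding protein of insulin-like growth factors (1.26 in D2A1 and 0.54 in EMT6), Ereg, Vegfa and the receptor genes Pdgfrb and Fgfr1, of which Igfbp4, Vegfa and Fgfr1 lost their call with those scalings. Below were Igfbp7, Angpt1, a ligand of the receptor TIE2 (-0.08 and 0.68), Egfr, Erbb3, Vegfc and Kdr. The last 4 had means of 0.669, 1.32, 0.754 and 1.25 CPM in D2A1, and Kdr is also an endothelial marker. Of 24 integrins and related receptors, Itgb4 (1.34 and 0.43) and the syndecan gene Sdc1 (0.80 and 0.29) were above and Itga6, Itgb6 and Itgb7 below, against the same shares of all genes. Itgb4 and Sdc1 were no longer called with total counts or median-of-ratios scaling. None of the 24 was below without the block, nor without D2A1 tumour 1, D2A1 tumour 2, or EMT6 tumour 1, 2 or 4. Itga6 pairs with Itgb4 in the hemidesmosome receptor, yet Itga6 fell in D2A1 (-0.79) with no called change in EMT6 (0.08).

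In serine synthesis Psat1, phosphoserine aminotransferase, fell in both lines and further in D2A1. It was at 64.2, 64.3, 53.3 and 40.4 CPM in D2A1 p27K high and 199, 196, 151 and 146 CPM in p27K negative cells, and at 235, 276, 293 and 279 against 542, 494, 556 and 485 CPM in EMT6. The gates did not overlap in either line, and the difference was -0.71 ± 0.13 (adjusted p = 0.00698, edgeR). It was the only member of the list of 30 genes of ATF4, serine and one-carbon metabolism below EMT6, with Ddit4 and the amino acid transporter gene Slc1a4 above. Of 44 lysosome and autophagy genes 35 rose and 2 fell in D2A1 and 25 rose and 1 fell in EMT6. Of them 3 were above (Ctsb, Psap and Gusb) and Ctsh below, against 2.84% and 1.64% of all genes, or 1 and 1 with total counts. Gusb, a lysosomal glucuronidase, fell in EMT6 (-0.49) and did not change detectably in D2A1 (0.02). Among complement genes C1ra was above (0.90 and 0.18). Of 35 immediate early genes Ier3 (1.04 and 0.10) and Spry1 were above and Arc below, against the same shares of all genes. The heat shock genes Hspa1b and Bag3, both above by 0.57, lost their calls with total counts and median-of-ratios scaling. The diacylglycerol acyltransferase gene Dgat1 (0.62 and -0.06) and the glutathione transferase gene Gstp1 (0.69 and 0.08) were above.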
